A study of Rattus norvegicus with 6 samples.

Results

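Nuclear receptors are transcription factors that are switched by small lipid-soluble ligands, and the liver uses them to match bile acid, sterol, fatty acid, drug and hormone handling to what reaches it. Of the 37 nuclear receptor genes considered, 35 had probe sets on an Affymetrix rat array, and these 63 probe sets were the ones whose only gene symbol was that of a listed receptor. Hnf4g and Nr6a1 had no probe set with such a symbol and have no value here, and the clock repressors Nr1d1 and Nr1d2 were not counted as members. All 63 probe sets were measured on every array, out of 31042 tested and 14217 genes named, with no filter on low signal. Each gene is represented by its brightest probe set, judged by the mean of all 6 arrays. Another 28 dimmer probe sets belonged to 17 of the receptors, and the other 18 receptors had 1 probe set each.

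Liver RNA of congenic BBDR rats was hybridized in 3 groups of 2 arrays. BBDR.lyp/lyp rats are homozygous for lyp, a mutation that lowers T cell numbers and leads to spontaneous diabetes. Such rats were represented at 50 days of age, before hyperglycemia (pre-hyperglycemia), and at 55 days, shortly after it began (post-hyperglycemia). BBDR.+/+ rats, of the same congenic background without the mutation, were 55 days old, and both ages carry a window of 5 days. Genotype and glycemia differ together between post-hyperglycemia and BBDR.+/+ arrays. Genotype and age differ together between pre-hyperglycemia and BBDR.+/+ arrays, and glycemia and age differ together between the pre- and post-hyperglycemia arrays. By the labels the rats were fasted before liver collection, by the methods they ate freely, and neither ties an array to a sampling hour. The labels do not say whether the arrays of a group came from separate animals, so the p-values cover no more than the spread between samples, which may be technical.

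As background, receptors of this family bind DNA alone, as homodimers or with a retinoid X receptor (Rxra, Rxrb, Rxrg), which is the common partner of the lipid and xenobiotic sensors. FXR (Nr1h4) senses bile acids and switches on SHP (Nr0b2), a receptor without a DNA-binding domain that represses others, among them LRH-1 (Nr5a2) and HNF4 alpha (Hnf4a), and so holds back the bile acid synthesis enzyme Cyp7a1. LXR beta and LXR alpha (Nr1h2, Nr1h3) sense oxysterols, PXR (Nr1i2) and CAR (Nr1i3) sense foreign compounds, and PPAR alpha (Ppara) senses fatty acids and is most active in fasting.

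The promoters of Nr0b2 and Nr1i3 are shown because these were the members whose signal stood highest above BBDR.+/+ before hyperglycemia. Each line is the RefSeq sequence of the 250 bases before the annotated start in build GRCr8, plus strand, for Nr0b2 at chr5:151062910-151063159 and for Nr1i3 at chr13:86165170-86165419. Capitals mark TCAAGG, the core of the site that LRH-1 recognizes, searched on both strands together with the receptor half-site AGGTCA, whose first letters can be the last letters of the core.
Nr0b2: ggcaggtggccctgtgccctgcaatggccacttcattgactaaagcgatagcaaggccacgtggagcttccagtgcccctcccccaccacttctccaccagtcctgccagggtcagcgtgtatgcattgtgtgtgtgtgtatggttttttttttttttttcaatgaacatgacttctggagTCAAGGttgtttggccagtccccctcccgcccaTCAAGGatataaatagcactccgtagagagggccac
Nr1i3: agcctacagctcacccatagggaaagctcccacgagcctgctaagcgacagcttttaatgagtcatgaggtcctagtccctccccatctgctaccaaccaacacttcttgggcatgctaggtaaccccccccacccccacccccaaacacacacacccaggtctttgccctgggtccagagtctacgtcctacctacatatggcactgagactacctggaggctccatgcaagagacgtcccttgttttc
The Nr0b2 window held TCAAGG at 2 places, both on the gene's strand, beginning 69 and 36 bases before the start. Of 33469 such windows of rat genes, 12.6% held this core at least once and 0.98% at least 2 times. Windows were at hand for 31 receptors, and those of Nr0b2, Esrrg and Thrb, 3 of 31, held TCAAGG. The half-site AGGTCA was in 14.1% of all windows and in 3 of 31 receptor windows, those of Rarg, Nr5a2 and Esrrg. Neither motif was in the Nr1i3 window. These matches describe the letters and are no evidence of binding.

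Control probe sets at both ends of 2 household transcripts set the post-hyperglycemia arrays apart from the rest. The 3' minus 5' signal of beta-actin was 2.04 and 2.11 on the log2 scale on the post-hyperglycemia arrays and 1.12 to 1.51 on the other arrays. For GAPDH it was 1.33 and 1.37 against 0.44 to 0.72. Correlations between arrays over all probe sets ran from 0.9904 to 0.9967. The hepatocyte markers, led by Alb, Serpina1 and Ttr, had a mean log2 level of 13.88 to 13.95 on every array, and 0 of 7 passed in any comparison, where 0, 0 and 1 had an unadjusted limma p under 0.05. Kupffer cell markers averaged 9.65 and 9.72 in BBDR.+/+, 9.97 and 9.98 before and 10.00 and 10.06 after hyperglycemia, and 4 of 8 (Cd163, Clec4f, C1qa and Cd5l) were higher after hyperglycemia than in BBDR.+/+. The neutrophil markers averaged 5.19 and 5.21 in BBDR.+/+ against 5.76 to 5.97 in BBDR.lyp/lyp, with S100a8 and S100a9 called in both comparisons with BBDR.+/+. T cell markers averaged 5.54 and 5.56 in BBDR.+/+ and 5.29 to 5.46 in BBDR.lyp/lyp, with 0 of 8 called and 2, 1 and 2 at an unadjusted p under 0.05. Stellate cell markers averaged 8.46 and 8.49 before hyperglycemia, 8.22 and 8.27 in BBDR.+/+ and 8.23 and 8.37 after it. Of 10, 1 was called, the collagen Col1a1, higher before hyperglycemia than in BBDR.+/+ (0.60) and lower after than before (-0.51). The other Col1a1 probe set passed against BBDR.+/+ both before (0.54) and after hyperglycemia (0.41). From pre- to post-hyperglycemia it differed by -0.13 without passing. Erythroid markers averaged 7.80 and 7.98 before hyperglycemia, 7.55 and 7.57 in BBDR.+/+ and 7.48 and 7.58 after it, and 1 of 5, the heme synthesis gene Alas2, was called higher before hyperglycemia than in BBDR.+/+ (0.56). Both lists were thus highest on the pre-hyperglycemia arrays, as Nr0b2 and Nr1i3 were. Sinusoidal endothelial markers averaged 8.96 and 9.13 in BBDR.+/+ and 9.24 to 9.37 in BBDR.lyp/lyp, and 1 of 6, Pecam1, was called higher after hyperglycemia than in BBDR.+/+ (0.49). In whole liver, fewer cells of a type and less RNA per cell cannot be told apart. The part of these cell types in the receptor results was not tested.

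Few receptor genes were called different between the groups, and the called share was small among all genes too. A difference is positive where post-hyperglycemia was above the group it is set against, or pre-hyperglycemia above BBDR.+/+. These signs follow the sample labels and oppose those of the fold changes printed by the study. Against BBDR.+/+, post-hyperglycemia livers had 0 of 35 receptor genes past a Benjamini-Hochberg adjusted p of 0.05 in limma, where 3.52% of the brightest probe sets of all genes passed. Here 10 of 35 receptors had an unadjusted p under 0.05, beside 18.9% of all genes, and the t-test of the methods called 0 after adjustment and 2 before it, where it called 3362 of 31042 probe sets. Between post- and pre-hyperglycemia 1 of 35 passed, Nr0b2, which was lower, against 1.37% of all genes, and 10 were at an unadjusted p under 0.05, beside 13.4%. Between pre-hyperglycemia and BBDR.+/+ 1 of 35 passed, again Nr0b2, which was higher, against 0.802% of all genes, and 9 were at an unadjusted p under 0.05, beside 12.2%. The comparisons share arrays, so both Nr0b2 calls rest on the same pre-hyperglycemia values. The median difference of the 35 genes was 0.05, -0.06 and 0.06 on the log2 scale in the order given, beside 0.04, 0.01 and 0.02 for all genes, but the signs of the first and second medians were not stable. Under centring on ribosomal protein genes they became 0.14 and 0.03, on gene means -0.04 and -0.09, and with the 3' minus 5' covariate -0.05 and -0.14. The differences were under 0.3 in size for 28, 30 and 30 of the 35. The median 95% interval, which is not adjusted for the number of probe sets, reached 0.25 to either side, so smaller differences could not be resolved. Larger ones also went uncalled after adjustment. Before hyperglycemia against BBDR.+/+ these included Esrrg at 0.53 (limma adjusted p = 0.129) and Nr1i3 at 0.60 (0.0666). A receptor that was not called may thus differ by more than 0.25.

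**Figure D1:**
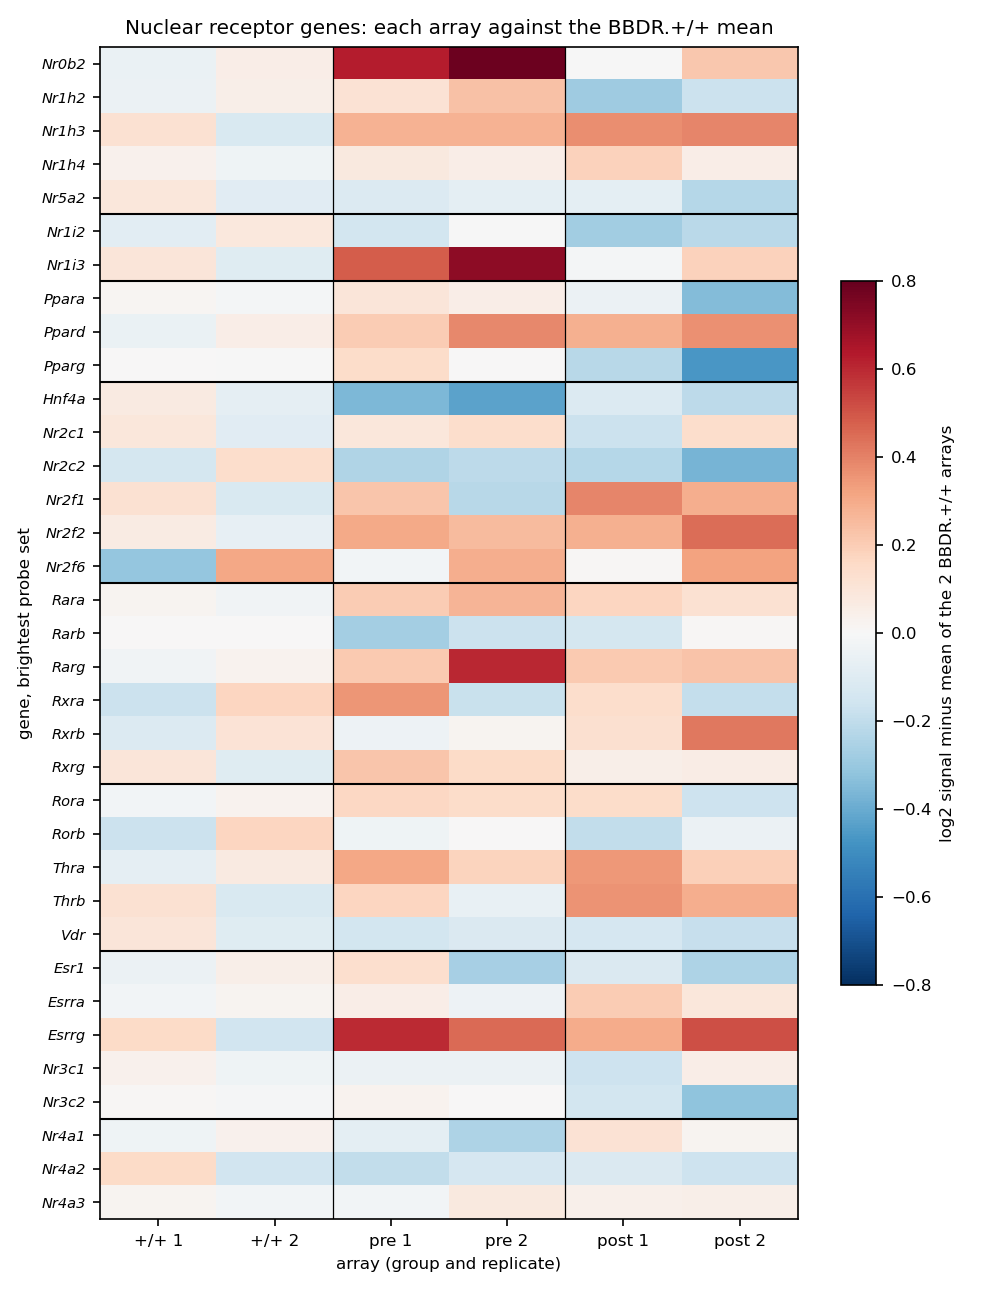
Log2 signal of the brightest probe set of 35 nuclear receptor genes (rows, grouped by class) on each of the 6 arrays (columns), minus the mean of the 2 BBDR.+/+ arrays. Nr0b2 and Nr1i3 are the darkest red rows on the pre-hyperglycemia arrays, where their means lie 0.71 and 0.60 above BBDR.+/+.

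**Figure D2:**
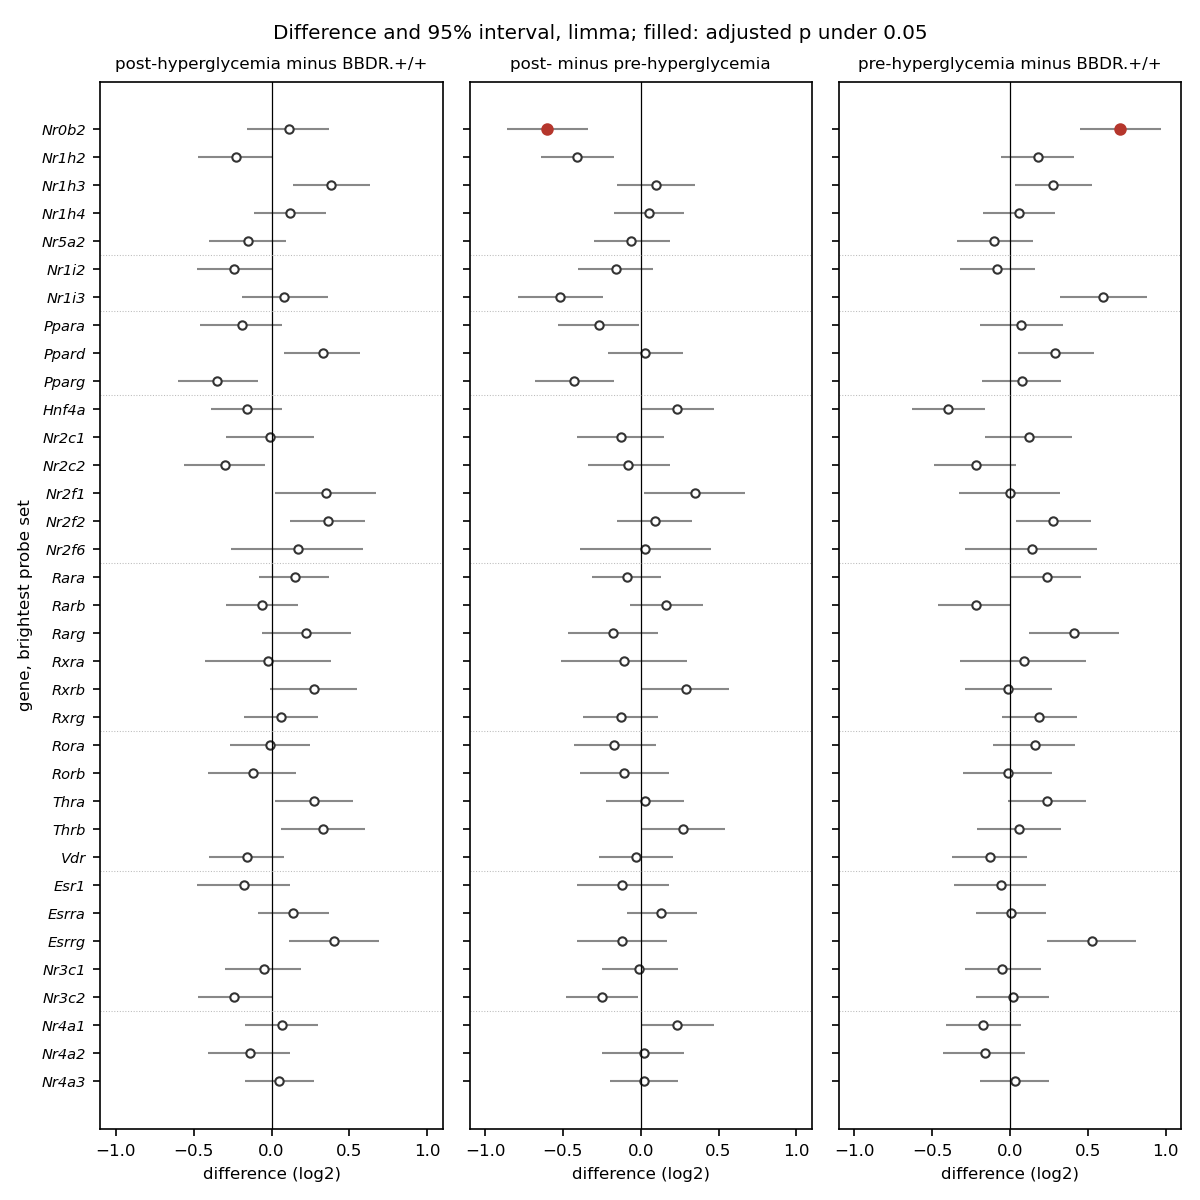
Difference in log2 signal (horizontal axis) for each receptor (rows) in the 3 comparisons, with 95% intervals from limma and filled points for an adjusted p under 0.05. Nr0b2 is filled in the comparisons that involve pre-hyperglycemia, at -0.60 and 0.71, and no receptor is filled in the first.

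With 2 arrays in each group, arrays that did not overlap were frequent among receptors, as they were among all genes. After hyperglycemia the arrays did not overlap with BBDR.+/+ for 22 of 35 receptors, 13 higher and 9 lower, beside 50.7% of all genes. Between post- and pre-hyperglycemia 19 of 35 did not overlap, 8 higher and 11 lower, beside 46.1%. Between pre-hyperglycemia and BBDR.+/+ it was 22 of 35, 16 higher and 6 lower, again beside 46.1%. The receptors that were higher there included Nr0b2, Nr1i3, Esrrg, both LXR genes and Ppard, and those that were lower were Hnf4a, Nr2c2, Nr3c1, Nr4a1, Rarb and Vdr.

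Among the bile acid and sterol sensors, SHP (Nr0b2) gave the clearest difference. Its log2 signal was 8.78 and 8.89 in BBDR.+/+, 9.46 and 9.62 before hyperglycemia and 8.83 and 9.05 after it. Both pre-hyperglycemia arrays lay above all the others, and the BBDR.+/+ and post-hyperglycemia arrays overlapped. The difference between pre-hyperglycemia and BBDR.+/+ was 0.71 (SE 0.12, limma adjusted p = 0.0267). From pre- to post-hyperglycemia Nr0b2 fell by 0.60 (SE 0.12, limma adjusted p = 0.0282), and post-hyperglycemia differed from BBDR.+/+ by 0.11 (95% interval -0.16 to 0.37). Leaving out single arrays ended the call against BBDR.+/+ for pre-hyperglycemia replicate 1 (0.79, adjusted p = 0.0684), replicate 2 (0.63, 0.151), BBDR.+/+ replicate 1 (0.65, 0.193) or replicate 2 (0.76, 0.181). The second call ended without pre-hyperglycemia replicate 2 (-0.52, adjusted p = 0.233), post-hyperglycemia replicate 1 (-0.49, 0.137) or any BBDR.+/+ array (-0.60, 0.0581 for each), with ribosomal centring (-0.51, 0.063), and with the 3' minus 5' difference of the control transcripts as a covariate (-0.11, 0.968). Over all 6 omissions the values ran from 0.63 to 0.79 and from -0.72 to -0.49.

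**Figure D3:**
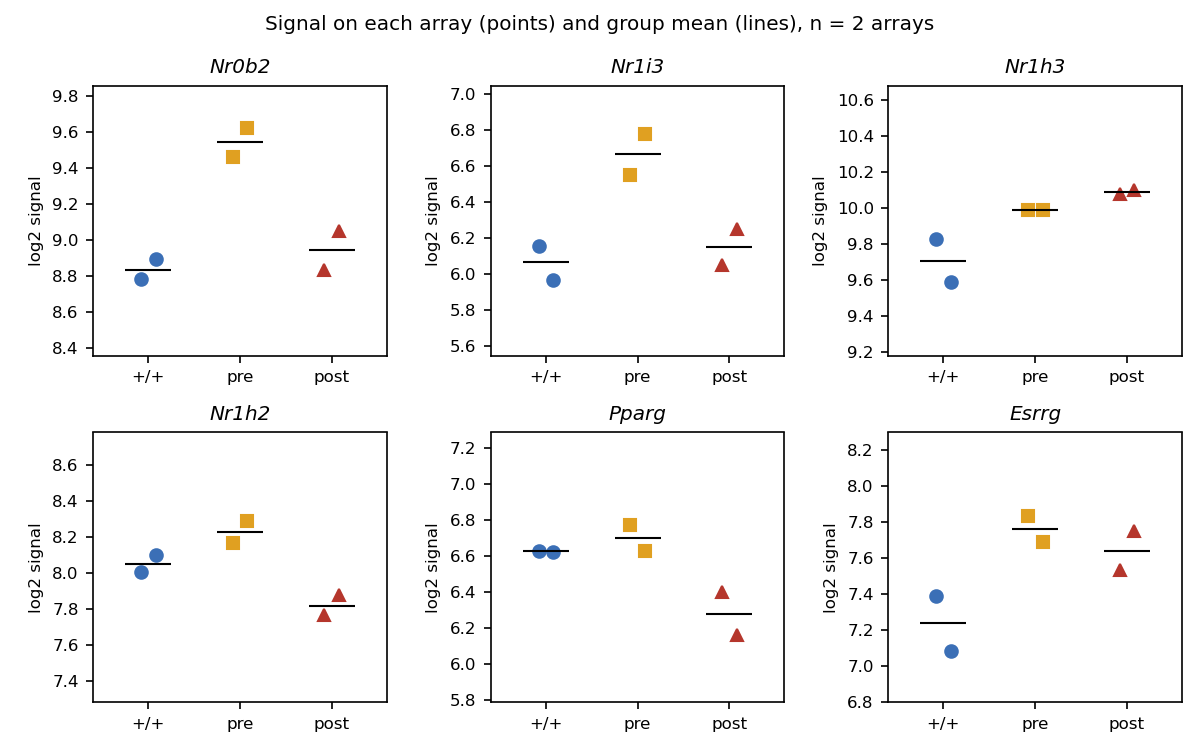
Log2 signal on each array (points) and group mean (lines) of 6 receptors in BBDR.+/+ (+/+), pre-hyperglycemia (pre) and post-hyperglycemia (post), 2 arrays each. Nr0b2 and Nr1i3 are high before hyperglycemia alone, while Nr1h3 and Esrrg are higher in both BBDR.lyp/lyp groups and Pparg is lowest after hyperglycemia.

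The other sensors of this group moved less. LXR alpha (Nr1h3) was at 9.83 and 9.59 in BBDR.+/+, 9.99 and 9.99 before and 10.08 and 10.10 after hyperglycemia. Its post-hyperglycemia arrays lay above BBDR.+/+ by 0.38 without passing (limma adjusted p = 0.0804), and it passed with ribosomal centring (0.48), with an intensity trend and among the brighter probe sets alone. LXR beta (Nr1h2) was at 8.01 and 8.10 in BBDR.+/+, 8.17 and 8.29 before and 7.77 and 7.88 after hyperglycemia. It was thus lowest after hyperglycemia, by -0.41 against pre-hyperglycemia (adjusted p = 0.0854 in limma). Its dimmer probe set differed there by -0.02. FXR (Nr1h4) ran from 9.77 to 9.99 over the 6 arrays, with differences of 0.05 to 0.12 and 95% intervals within -0.17 and 0.35.

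Genes that FXR, SHP and LXR regulate are listed for comparison. Of 11 FXR and SHP targets measured, 2 passed, both between post- and pre-hyperglycemia. Cyp7a1, the rate-limiting enzyme of bile acid synthesis, was at 11.96 and 11.81 in BBDR.+/+, 11.53 and 11.43 before and 12.05 and 12.07 after hyperglycemia. It rose by 0.58 from pre- to post-hyperglycemia (limma adjusted p = 0.0204), with pre-hyperglycemia below the other groups, where Nr0b2 was above them. A link between these genes was not tested. Abcb4, the phospholipid exporter of the bile canaliculus, fell by 0.67 (adjusted p = 0.0118). In the other comparisons 0 of 11 passed, with 1 and 3 at an unadjusted p under 0.05, Cyp7a1 among the latter at -0.41 (adjusted p = 0.144). Of 12 LXR targets, 2 fell against BBDR.+/+ after hyperglycemia on their brightest probe sets, the lipogenic regulator Srebf1 by 0.54 and the desaturase Scd by 0.71. A dimmer probe set of Abca1, picked after its value was seen, rose there by 0.60 (limma adjusted p = 0.00961). The brightest of Abca1 differed by 0.14 and its others by -0.30 and -0.05. Other dimmer probe sets of this list were not counted. Between post- and pre-hyperglycemia Scd rose by 0.56 while the sterol exporter subunit Abcg8 fell by 0.71 and the phospholipid remodelling enzyme Lpcat3 fell by 0.48. The other Lpcat3 probe set, nearly as bright, differed there by -0.03, and Lpcat3 no longer passed on gene means. Before hyperglycemia Scd alone passed against BBDR.+/+, and fell by 1.26. The medians of the LXR targets were -0.02, -0.07 and 0.21.

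Of the xenobiotic sensors, CAR (Nr1i3) had the same order of groups as Nr0b2. Its signal was 6.16 and 5.97 in BBDR.+/+, 6.55 and 6.78 before and 6.05 and 6.25 after hyperglycemia. The pre-hyperglycemia arrays were the 2 highest and the other groups overlapped. The differences were 0.60 against BBDR.+/+ (SE 0.13, limma adjusted p = 0.0666) and -0.52 from pre- to post-hyperglycemia (SE 0.13, adjusted p = 0.0647). Neither passed. Both passed among the brightest 60% of probe sets (0.0412 and 0.0406), with an intensity trend (0.0391 and 0.0463) and on gene means (0.0346 and 0.0485). PXR (Nr1i2) was at 8.98 and 9.15 in BBDR.+/+, 8.92 and 9.06 before and 8.79 and 8.85 after hyperglycemia, a difference of -0.24 from BBDR.+/+ (95% interval -0.48 to 0.00).

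Of 15 PXR and CAR targets, the cytochrome P450 genes Cyp3a9 and Cyp3a18 passed. Cyp3a9 was at 11.17 and 11.11 in BBDR.+/+, 10.03 and 9.86 before and 11.00 and 10.97 after hyperglycemia. It fell by 1.20 against BBDR.+/+ before hyperglycemia (limma adjusted p = 0.00105) and was 1.04 higher after than before (adjusted p = 0.00182). Cyp3a18 moved the other way from pre- to post-hyperglycemia, where it fell by 0.59 (adjusted p = 0.0285). Post-hyperglycemia against BBDR.+/+ had 0 of 15 called and 1 at an unadjusted p under 0.05, the growth arrest gene Gadd45b at 0.45. The list medians were -0.08, -0.05 and 0.11.

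Clock genes moved between the same arrays. Nr1d1, a nuclear receptor of the clock, fell by 1.55 before hyperglycemia against BBDR.+/+ (limma adjusted p = 0.00105) and 1.11 higher after than before (adjusted p = 0.00328). Of 13 clock genes 3 fell between pre-hyperglycemia and BBDR.+/+, namely Nr1d1, Nr1d2 (-0.79) and Per3 (-0.71). After hyperglycemia Cry1 (0.69) and Npas2 (0.55) were higher and Nr1d2 (-0.55) was lower than in BBDR.+/+. This list was added after values had been seen, and its part in the Nr0b2 and Nr1i3 results was not tested.

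Of the fatty acid sensors, none passed, and PPAR gamma came nearest. Pparg, better known for fat storage, was at 6.63 and 6.62 in BBDR.+/+, 6.77 and 6.63 before and 6.40 and 6.16 after hyperglycemia. Both post-hyperglycemia arrays were the lowest, by -0.43 against pre-hyperglycemia (limma adjusted p = 0.0959) and by -0.35 against BBDR.+/+ (adjusted p = 0.118). Ppara was at 5.26 and 5.23, 5.34 and 5.30, and 5.20 and 4.90 in BBDR.+/+, before and after hyperglycemia. Its difference of -0.27 from pre- to post-hyperglycemia had an adjusted p of 0.319 in limma. Ppard was higher in BBDR.lyp/lyp at both times, at 8.45 to 8.63 against 8.19 and 8.30, by 0.29 and 0.33 (adjusted p = 0.316 and 0.123).

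Ppara was read by 1 probe set, with 37.4% of all probe sets dimmer. PPAR alpha targets held calls, but a list of genes has more chances of a call than 1 gene. Of 15 measured, 4 fell between pre- and post-hyperglycemia and 0 rose, with a list median of -0.14. The mitochondrial fatty acid carrier enzyme Cpt1a was at 10.59 and 10.62 in BBDR.+/+, 11.37 and 11.47 before and 10.60 and 10.53 after hyperglycemia. It fell by 0.85 (limma adjusted p = 0.00361), the peroxisomal enzyme Ehhadh fell by 0.75 (0.0323), the pantetheinase Vnn1 fell by 0.55 (0.0472) and the fatty acid hydroxylase Cyp4a3 fell by 0.51 (0.0465). Before hyperglycemia 2 of 15 were higher than in BBDR.+/+, Vnn1 by 1.07 (adjusted p = 0.00406) and Cpt1a by 0.81 (0.00574), with a median of 0.22. After hyperglycemia only Vnn1 passed against BBDR.+/+, at 0.52, and the median was 0.04. The dimmer probe set of Cpt1a nonetheless fell by 1.13 against BBDR.+/+ (adjusted p = 0.0012) and by 1.43 against pre-hyperglycemia (0.00127). On the brightest probe sets the pre-hyperglycemia arrays were thus the highest for Cpt1a, Ehhadh, Vnn1 and Cyp4a3.

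**Figure D4:**
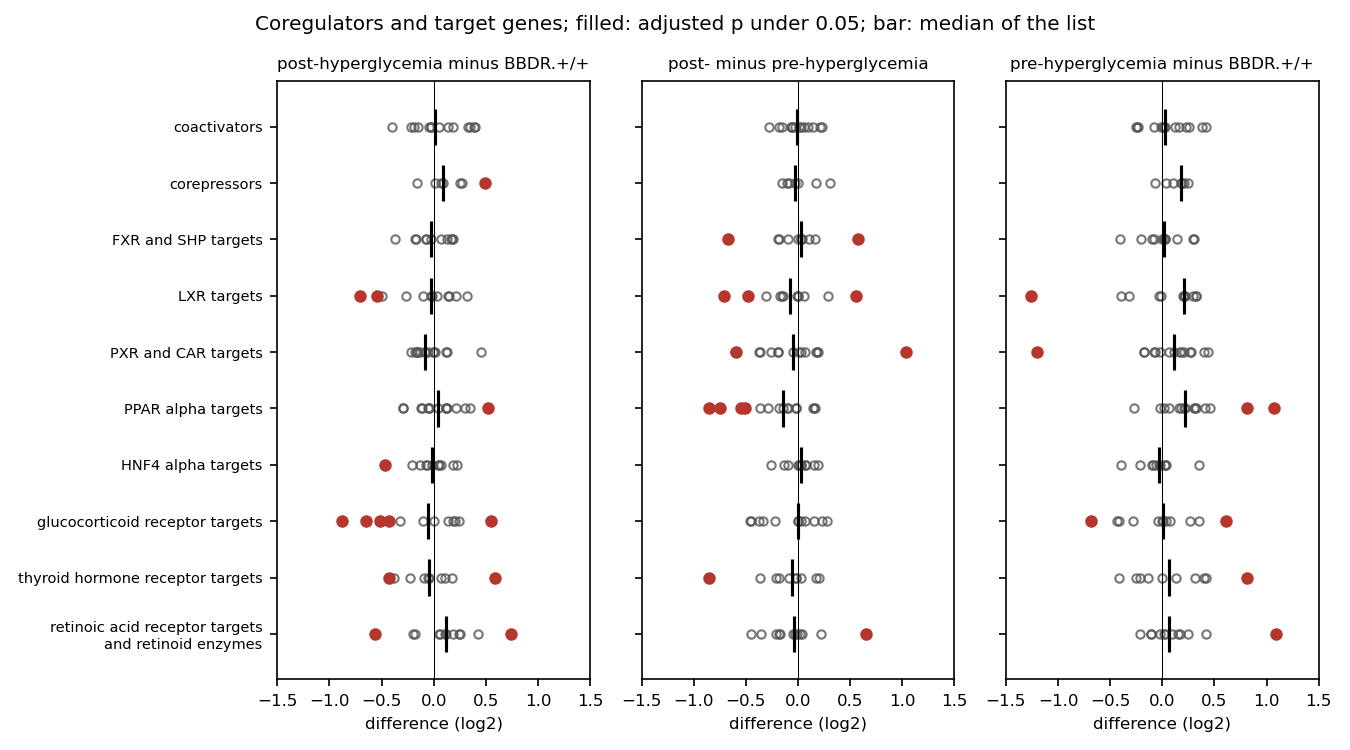
Difference in log2 signal (horizontal axis) of the measured genes of 10 lists of coregulators and receptor targets (rows) in the 3 comparisons, 1 point per gene, filled where the limma adjusted p is under 0.05, with a bar at the list median. List medians lie between -0.14 and 0.22, and across the 3 panels the filled points of most lists fall on both sides of 0.

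In the HNF4 and COUP-TF group the probe sets of single genes disagreed. HNF4 alpha (Hnf4a), a main regulator of hepatocyte genes, was at 12.40 and 12.26 in BBDR.+/+, 11.97 and 11.90 before and 12.22 and 12.12 after hyperglycemia on its brightest probe set. That probe set was lowest before hyperglycemia, by -0.40 against BBDR.+/+ (limma adjusted p = 0.151). On the probe set 1369289_at the pre-hyperglycemia arrays were instead the highest, at 8.50 and 8.74, against 8.01 and 8.34 in BBDR.+/+ and 7.43 and 7.65 after hyperglycemia. It fell by 1.08 from pre- to post-hyperglycemia (adjusted p = 0.00505) and by 0.64 against BBDR.+/+ (0.0278). The third, 1382496_at, fell by 0.59 from pre- to post-hyperglycemia (0.0305). The study had picked Hnf4a on these arrays, which is not independent of its direction.

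The probe sets of COUP-TFII (Nr2f2) also differed in sign, and 1 of its 3 passed. Its brightest was at 9.87 and 9.74 in BBDR.+/+, 10.11 and 10.06 before and 10.09 and 10.25 after hyperglycemia, and post-hyperglycemia lay 0.36 above BBDR.+/+ (limma adjusted p = 0.088). The probe set 1370063_at was at 6.69 and 7.22, 6.50 and 6.70, and 6.0 and 6.26 in the same order. It fell by 0.83 against BBDR.+/+ after hyperglycemia (adjusted p = 0.0181). The third, 1395863_at, differed there by 0.07. COUP-TFI (Nr2f1) was 0.35 higher after hyperglycemia than in either other group (adjusted p = 0.225 and 0.297). The testicular receptor genes Nr2c1 and Nr2c2 and the COUP-related Nr2f6 stayed between -0.30 and 0.17 on their brightest probe sets. Nr2f1 and Nr2c2 were dim, with 34.5% and 22.5% of all probe sets dimmer. Of 11 HNF4 alpha targets, 1 passed, the urea cycle enzyme Otc, which fell by 0.47 against BBDR.+/+ after hyperglycemia (0.0354). The other comparisons had 0 of 11, with 1 and 2 at an unadjusted limma p under 0.05, and the medians were -0.02, 0.03 and -0.03.

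LRH-1 (Nr5a2), which drives bile acid synthesis genes and is held back by SHP, gave the same split. Its brightest probe set was at 9.41 and 9.23 in BBDR.+/+, 9.21 and 9.24 before and 9.24 and 9.09 after hyperglycemia, a difference of -0.15 from BBDR.+/+ (95% interval -0.40 to 0.09). On 1384835_at the groups separated fully, at 7.59 and 7.75, 7.22 and 7.25, and 6.75 and 6.82, and post-hyperglycemia fell by 0.89 (limma adjusted p = 0.00138). On 1387573_a_at it fell by 0.73 (0.0112). Both dimmer probe sets of Nr5a2 therefore passed where the brightest did not. With single arrays left out the difference on 1384835_at ran from -0.97 to -0.81, and it was -0.48 and no longer passed with the 3' minus 5' difference of the control transcripts as a covariate (adjusted p = 0.832).

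The thyroid hormone receptor Thrb showed this split too, while no probe set of Thra, Rora, Rorb or Vdr passed. Thrb was at 9.96 and 9.72 in BBDR.+/+, 10.01 and 9.78 before and 10.20 and 10.13 after hyperglycemia on its brightest probe set, 0.33 higher after hyperglycemia than in BBDR.+/+ without passing (limma adjusted p = 0.163). Its probe set 1378457_at was at 8.25 and 8.40, 8.04 and 7.99, and 7.68 and 7.77, and fell by 0.59 (0.00985). Thra was 0.27 higher on its brightest probe set and differed by -0.33 on 1370691_a_at, and neither passed (0.209 and 0.158). The orphan receptors Rora and Rorb and the vitamin D receptor Vdr stayed between -0.17 and 0.16 on their brightest probe sets. These were dim, with 34.4%, 29.7% and 23.8% of all probe sets dimmer, respectively. The other Rora probe set, almost as bright, differed more after hyperglycemia without passing. It came to -0.56 against pre-hyperglycemia (limma adjusted p = 0.112) and -0.41 against BBDR.+/+ (0.186). Of 10 thyroid hormone targets, 1 fell and 1 rose after hyperglycemia against BBDR.+/+, the lipogenic malic enzyme Me1 by -0.43 and the coregulator Bcl3 by 0.59. The dimmer Bcl3 probe sets differed there by 0.14 and -0.03. Cpt1a, on this list too, was the only call in each other comparison, and the medians were -0.04, -0.06 and 0.06.

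**Figure D5:**
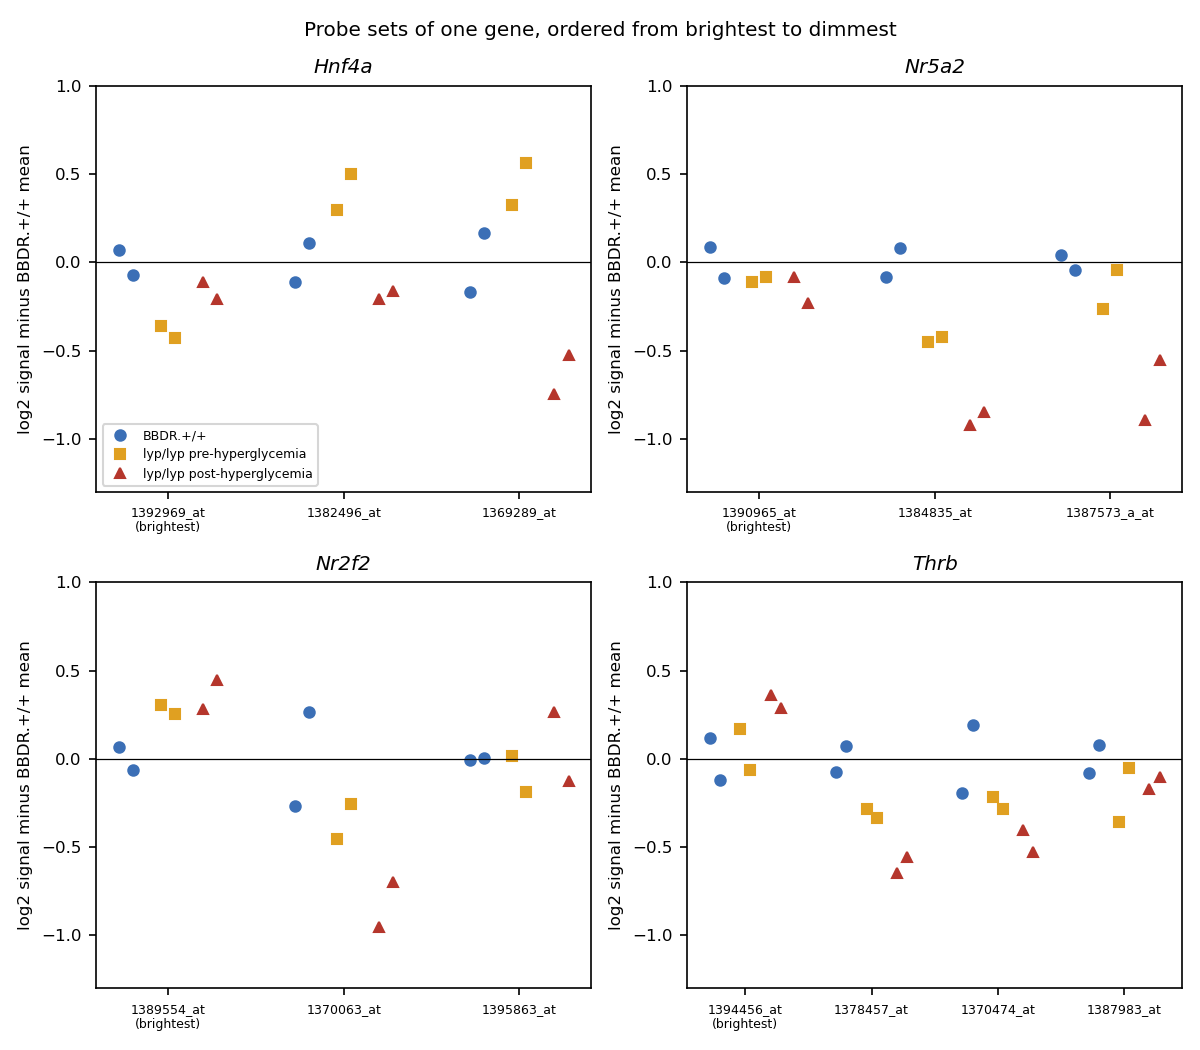
Log2 signal minus the BBDR.+/+ mean (vertical axis) for every probe set of Hnf4a, Nr5a2, Nr2f2 and Thrb, ordered from brightest to dimmest along each horizontal axis, 1 point per array. The dimmer probe sets 1369289_at, 1384835_at, 1387573_a_at, 1370063_at and 1378457_at lie lowest on the post-hyperglycemia arrays, while the brightest of each gene stays within 0.45 of 0.

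Falls on dimmer probe sets were common on these arrays. Of the 63 receptor probe sets, 5 passed between post-hyperglycemia and BBDR.+/+, beside 5.15% of all probe sets, and all 5 were dimmer ones that fell. Between post- and pre-hyperglycemia 3 of 63 fell, beside 2.18%, and before hyperglycemia 1 of 63 passed against BBDR.+/+, beside 0.718%. Among dimmer probe sets alone, 5 of 28 of the receptors fell in the first comparison, 17.9% beside 10.1% of all 6609 such probe sets. In the second it was 2 of 28 beside 4.37%, and in the third 0 of 28 beside 0.424%, with 4 of 28 lower at an unadjusted limma p under 0.05, beside 8.65% of all. Where an array is centred makes no difference to the change of a dimmer probe set relative to the brightest of its gene, so that change was tested too, after the values had been seen. After hyperglycemia it was negative and passed for 6 of 28 against BBDR.+/+, beside 16.0% of all genes' dimmer probe sets. It was largest for Nr2f2 1370063_at (-1.19, SE 0.20, limma adjusted p = 0.000728), followed by Thrb 1378457_at (-0.92, 0.00174), Thrb 1370474_at (-0.80, 0.00837), Nr5a2 1384835_at (-0.74, 0.00656), Thra 1370691_a_at (-0.60, 0.0168) and Nr5a2 1387573_a_at (-0.57, 0.0357). Against pre-hyperglycemia it passed for 2 of 28, both of Hnf4a (-1.31, 0.00235 and -0.82, 0.0134), beside 5.49%. Before hyperglycemia it passed for 0 of 28 against BBDR.+/+, beside 0.0605%. There 4 had an unadjusted limma p under 0.05, negative for Nr2f2 (-0.63) and Thra (-0.51) and positive for both dimmer probe sets of Hnf4a (0.84 and 0.79).

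The control transcripts' larger 3' minus 5' difference was on the same post-hyperglycemia arrays, and it cannot be told apart from the group itself. Where each probe set lies along its transcript was not used here. The direct fall of 1369289_at between post- and pre-hyperglycemia and that of Nr5a2 1384835_at against BBDR.+/+ passed with each array left out in turn. With the 3' minus 5' difference of the arrays as a covariate these came to -0.08 (limma adjusted p = 0.979) and -0.48 (0.832), and neither passed. Against BBDR.+/+ the falls on Hnf4a 1369289_at (-0.47 and -0.53), Nr2f2 1370063_at (-0.56 and -0.70), Thrb 1378457_at (-0.52 and -0.55) and Nr5a2 1387573_a_at (-0.77 and -0.56) no longer passed on omitting BBDR.+/+ replicate 2 and post-hyperglycemia replicate 1, respectively. Nr5a2 1387573_a_at also failed without BBDR.+/+ replicate 1 (-0.68). The fall of Hnf4a 1382496_at from pre- to post-hyperglycemia failed without pre-hyperglycemia replicate 2 (-0.49) or either post-hyperglycemia array (-0.56 and -0.61). Of the 8 relative changes called, those of Nr2f2 1370063_at and Thrb 1378457_at passed with each array left out in turn. The Hnf4a ones ended without pre-hyperglycemia replicate 2 (-1.16 and -0.69) or post-hyperglycemia replicate 1 (-1.15 and -0.75). Without BBDR.+/+ replicate 2 the calls of Nr5a2 1384835_at (-0.57), Nr5a2 1387573_a_at (-0.53), Thra 1370691_a_at (-0.58) and Thrb 1370474_at (-0.48) ended. The same 4 ended without post-hyperglycemia replicate 1, at -0.63, -0.33, -0.64 and -0.82. Nr5a2 1387573_a_at also ended without BBDR.+/+ replicate 1 (-0.61), and Thra 1370691_a_at (-0.56) and Thrb 1370474_at (-0.77) without post-hyperglycemia replicate 2.

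Among the retinoid receptors no probe set passed. Rarg, a retinoic acid receptor, was at 6.23 and 6.29 in BBDR.+/+, 6.47 and 6.86 before and 6.47 and 6.49 after hyperglycemia, 0.41 higher before hyperglycemia than in BBDR.+/+ (limma adjusted p = 0.236). Rara was higher in both BBDR.lyp/lyp groups, at 7.80 to 7.95 against 7.65 and 7.70. Rarb was lower before hyperglycemia, at 10.28 and 10.38 against 10.55 and 10.55. The partners Rxra, Rxrb and Rxrg stayed between -0.13 and 0.29, and the 2 arrays of each group differed by 0.33 to 0.53 for Rxra, more than any of its differences between groups.

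On their brightest probe sets, some retinoid enzymes held larger differences than the retinoid receptors. Of 12 genes, Cyp26b1, which breaks down retinoic acid, was at 6.50 and 6.14 in BBDR.+/+, 7.61 and 7.21 before and 7.11 and 7.02 after hyperglycemia. It rose by 1.09 before (limma adjusted p = 0.0103) and by 0.74 after hyperglycemia (0.0198) against BBDR.+/+. The other Cyp26b1 probe set did not show this rise. It differed by 0.07 before and by -0.26 after hyperglycemia against BBDR.+/+, without passing (0.914 and 0.361). The related gene Cyp26a1 rose by 0.65 from pre- to post-hyperglycemia (0.0317). The retinol dehydrogenase Rdh10 fell by 0.56 against BBDR.+/+ after hyperglycemia (0.0157). Medians of this list were 0.12, -0.04 and 0.06.

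The steroid and estrogen-related receptors did not pass either. Esrrg, an orphan receptor of energy metabolism, was at 7.39 and 7.08 in BBDR.+/+, 7.83 and 7.69 before and 7.53 and 7.75 after hyperglycemia. BBDR.lyp/lyp arrays were all higher than BBDR.+/+, by 0.53 before (limma adjusted p = 0.129) and 0.40 after (0.113). Its other probe set differed by 0.26 and 0.00. The glucocorticoid receptor Nr3c1 ran from 9.66 to 9.88 over the 6 arrays, with differences of -0.05, -0.01 and -0.05. The mineralocorticoid receptor Nr3c2 was at 6.37 and 6.20 after hyperglycemia against 6.51 to 6.55 elsewhere (adjusted p = 0.246 and 0.29). Esrra and Esr1 differed by -0.18 to 0.14, and Esr1 was dim, with 10.7% of all probe sets dimmer.

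Of 12 glucocorticoid receptor targets, 4 fell and 1 rose after hyperglycemia against BBDR.+/+, with a median of -0.05. The amino acid enzymes Tat (-0.88, limma adjusted p = 0.0115) and Sds (-0.65, 0.0054), the phosphatase Dusp1 (-0.51, 0.0169) and the growth arrest gene Gadd45a (-0.43) fell, and the transcription factor Cebpd rose by 0.55 (0.0286). The dimmer Dusp1 probe set differed by -2.02 (0.000587), and by -1.37 against pre-hyperglycemia (0.00745). The dimmer Cebpd probe sets differed from BBDR.+/+ by -0.02 and 0.04. Before hyperglycemia Sds fell by 0.68 and the insulin-repressed binding protein Igfbp1 rose by 0.61 (0.03). Between post- and pre-hyperglycemia 0 of 12 passed on the brightest probe sets and 6 had an unadjusted p under 0.05, led by the kinase Sgk1 at -0.45 (0.0636).

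On their brightest probe sets, the immediate early receptors of the NR4A class differed least. Nr4a1 was at 7.74 and 7.81 in BBDR.+/+, 7.70 and 7.53 before and 7.89 and 7.80 after hyperglycemia, and Nr4a3 ran from 5.90 to 6.0 over all arrays. The differences of these and Nr4a2 lay between -0.17 and 0.23 on the log2 scale on the brightest probe sets. On the dimmer ones they ran from -0.24 to 0.27, and no probe set of the class passed.

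Coregulators carry out activation and repression by the receptors. On the brightest probe sets of 14 coactivators 0 passed in any comparison, with 5, 0 and 2 at an unadjusted limma p under 0.05. The nearest were Carm1 (0.39, adjusted p = 0.0946) and Med1 (0.40, 0.0958) after hyperglycemia against BBDR.+/+. Of 7 corepressors 1 passed, Tbl1x, a subunit of the NCoR complex, which rose by 0.49 against BBDR.+/+ after hyperglycemia (0.033). The direction for Tbl1x turned to -0.22 when all its probe sets were averaged. Dimmer probe sets, chosen after their values were seen, gave further calls. After hyperglycemia against BBDR.+/+ they passed for the coactivators Pnrc2 (-1.26, limma adjusted p = 0.00088) and Kat2b (-0.66, 0.0103) and the corepressors Tbl1x (-0.83, 0.0115), Sin3a (-0.58, 0.00894) and Ncor1 (-0.49, 0.0271). Those of Pnrc2 (-0.63, 0.0412) and Sin3a (-0.67, 0.00921) also passed against pre-hyperglycemia. Of all genes' dimmer probe sets, 10.1% were called lower against BBDR.+/+ and 4.37% against pre-hyperglycemia. The dimmer probe sets of coregulators that did not pass were not counted.

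Calls among these target genes depended on single arrays. Of 14 target and coregulator genes called between post-hyperglycemia and BBDR.+/+, 6 and 0 stayed called on omitting replicates 1 and 2 of BBDR.+/+, 4 and 5 on omitting those of post-hyperglycemia, and 12 on omitting either pre-hyperglycemia array. On gene means 9 of the 14 stayed called, and Bcl3, Cebpd, Cyp26b1, Me1 and Tbl1x did not. Without BBDR.+/+ replicate 2 the values still ran the same way, as with Scd at -0.68, Tat at -0.75 and Cyp26b1 at 0.57. Of 12 called between post- and pre-hyperglycemia, 6 and 2 stayed called without pre-hyperglycemia replicate 1 and 2, 4 and 6 without post-hyperglycemia replicate 1 and 2, and 5 without either BBDR.+/+ array. Of 7 called between pre-hyperglycemia and BBDR.+/+, 4 and 4 stayed without the pre-hyperglycemia arrays, 2 and 1 without the BBDR.+/+ arrays and 7 without either post-hyperglycemia array. Cyp3a9 (0.95 to 1.13 and -1.29 to -1.11) kept both its calls and Cpt1a (-0.90 to -0.80) kept that between post- and pre-hyperglycemia whichever array was left out.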

How the data were processed

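Liver total RNA was measured in 6 samples, which the labels put in 3 groups of 2. The authors obtained signals in Expression Console (Affymetrix), and normalization was done in Partek Genomic Suite by a procedure and in versions not given in the sources used here. That step sets the scale of every difference. The labels name another amplification kit than the methods. The deposited values are log2 signals, 1 per probe set and array (31099 probe sets, of which 57 controls were set aside). Probe sets were named through the platform's annotation: 20826 had 1 symbol, 436 several and 9780 none. The Entrez identifiers of all 63 receptor probe sets were found in a current rat gene table, and 0 symbols had changed.

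limma (version 3.58.1, R 4.3.3) was fitted to all 6 arrays, 1 mean per group, with 3 residual and 7.7 prior degrees of freedom, Benjamini-Hochberg adjustment over 31042 probe sets, a threshold of 0.05 and no signal filter. It was tested on simulated data. The number of arrays limits the precision. The rank product of the methods, which permutes ranks over genes, was not run, and their t-test was an alternative. Genes named were all members, from each list up to 4 genes of the smallest p that passed in a comparison or else up to 2 of the smallest p, the 3 brightest genes of each marker list, and control probe sets. Gadd45a and Abca1, outside this rule, were named after their values were seen. One marker gene and the count of its list are not reported here. The members and lists were chosen with earlier results of these data known, and the clock genes and the fit of relative changes between probe sets were added after values had been seen. Tables were built with Python 3.11.15, pandas 2.3.3 and scipy 1.17.1.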

Additional observations from a re-analysis of the deposited data

How the results depend on the processing

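Counts are given first for post-hyperglycemia against BBDR.+/+, next for post- against pre-hyperglycemia, and last for pre-hyperglycemia against BBDR.+/+. Receptor genes called were 0, 1 and 1. They became 3, 0 and 1 with ribosomal centring, 1, 3 and 2 among the top 60% and 4, 2 and 3 among the top 30% of probe sets by signal, 1, 3 and 2 on gene means, 0, 1 and 2 with the brightest probe sets alone, 2, 3 and 3 with an intensity trend, 0, 0 and 1 with only the 4 arrays compared, 0, 0 and 0 by the methods' t-test after adjustment, 2, 3 and 5 before it, and 0, 0 and 1 with the 3' minus 5' difference as a covariate. Receptor probe sets called were 5, 3 and 1, and became 7, 1 and 1 with ribosomal centring, 6, 6 and 2 and 6, 4 and 3 among the top 60% and 30%, 7, 7 and 3 with the trend, 0, 0 and 0 and 6, 9 and 8 by the t-test after and before adjustment, and 0, 0 and 1 with the covariate. Coregulator and target genes called were 14, 12 and 7, and became 17, 7 and 7 with ribosomal centring, 22, 15 and 11 among the top 30%, 23, 21 and 14 with the trend, 13, 5 and 7 with 4 arrays, 0, 0 and 0 and 22, 23 and 34 by the t-test, and 0, 0 and 6 with the covariate. All probe sets called were 1599, 677 and 223. They became 2465, 707 and 192 with ribosomal centring, 1466, 846 and 403 among the top 30%, 753, 328 and 188 on gene means, 577, 201 and 196 with the brightest alone, 2371, 1225 and 496 with the trend, 1567, 413 and 212 with 4 arrays, 0, 0 and 1 and 3362, 2790 and 2784 by the t-test, and 0, 0 and 115 with the covariate. Ribosomal centring shifted the median of all probe sets to 0.107 and 0.098 in the first pair of comparisons, with 1723 higher and 742 lower (587 and 1012 otherwise) and 451 and 256 (223 and 454).

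With any 1 array left out, receptor genes called ran from 0 to 0, 0 to 1 and 0 to 1, receptor probe sets from 1 to 5, 1 to 4 and 0 to 1, coregulator and target genes from 0 to 13, 2 to 7 and 1 to 7, and all probe sets from 291 to 1567, 112 to 537 and 12 to 212. The fewest came without BBDR.+/+ replicate 2, pre-hyperglycemia replicate 2 and BBDR.+/+ replicate 2.

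The covariate turned the sign of Hnf4a 1369289_at (0.51), Nr2f2 1370063_at (0.70), Srebf1 (0.39), Tat (0.32), Cyp26b1 (-0.59) and Rdh10 (0.00) after hyperglycemia against BBDR.+/+, and of Hnf4a 1382496_at (0.07) and Abcg8 (0.06) against pre-hyperglycemia. Means over probe sets turned Hnf4a to -0.48 against pre-hyperglycemia and Tbl1x to -0.22 against BBDR.+/+. The causes were not tested. From pre- to post-hyperglycemia Nr0b2 came to -0.11 with the covariate and no longer passed.

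Same-numbered arrays deviated together by correlations of 0.142, 0.11 and 0.261, but nothing in the labels says that a number pairs arrays. With the replicate block, receptor genes called were 0, 3 and 2, receptor probe sets 5, 8 and 2, coregulator and target genes 17, 16 and 7, and all probe sets 2273, 1191 and 408. Both Nr1i3 differences passed with it (limma adjusted p = 0.0474 and 0.0481).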
